A study of Mus musculus with 5 samples.

Results

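The genes described here encode 10 proteins that carry long-chain fatty acids into the cell and bind them inside it, and all were measured in the liver of 5 mice. They are the scavenger receptor gene Cd36, 4 genes of fatty acid transport proteins (Slc27a1, Slc27a2, Slc27a4 and Slc27a5) and 5 genes of cytosolic fatty acid-binding proteins (Fabp1, Fabp2, Fabp4, Fabp5 and Fabp7). They were chosen by name, with earlier results of these data known. Each is represented by a probe set to which the array's annotation gives exactly 1 symbol. Where a gene has several such probe sets, the one with the highest mean was used. All 10 were found among the 19938 genes so represented.

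Each of the 5 animals was a wild-type male C57BL/6N mouse aged 5 to 6 months. Streptozotocin, a toxin of the insulin-producing beta cells used to induce type 1 diabetes, had been injected at 65 mg/kg on each of 5 days at an age of 10 to 16 weeks. Bezafibrate is a fibrate, a drug that lowers blood lipids as an agonist of the peroxisome proliferator-activated receptors (PPARs). It was then mixed into the food for 8 weeks, from 2 weeks after streptozotocin. The food held either 0.25% or 0.5% of it by weight, and the labels do not tie a concentration to a mouse. All 5 mice belong to the same group, so what can be read from them is how strongly each gene is expressed after both compounds and how far the mice differ, not what either compound does.

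Fatty acids reach the hepatocyte bound to albumin or from lipoproteins, and cross its membrane with the help of CD36 and the fatty acid transport proteins, which are themselves acyl-CoA synthetases that trap the acid as its CoA ester. Inside, fatty acid-binding proteins, small barrel-shaped proteins with an internal pocket, hold the acid in solution and bring it to mitochondria, peroxisomes, the endoplasmic reticulum and nuclear receptors. In rodent liver, Cd36, Fabp1 and Slc27a1 are known as genes that fibrates induce through PPARA. The loss of insulin also raises the flow of fatty acids out of fat tissue to the liver.

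The regulatory sequence in front of 3 of the genes is printed because Fabp1 is the textbook case of a PPAR-bound promoter, Cd36 is another known fibrate target, and Fabp7 had the widest gap between 1 mouse and the others relative to its own range. Shown are the 250 bases before an annotated start (RefSeq, assembly GRCm38.p6), each 5′ to 3′ on the strand of its gene. The start for Cd36 lies inside the annotated gene and is not its outermost one. In Fabp1 the capitals mark a match to AGGNCANAGGNCA, a relaxed form of the PPAR response element in which N is any base, and the TATA box TATAAA. In Cd36 they mark the hexamer AGGTCA and the GC box GGGCGG, and in Fabp7 the hexamer AGGTCA, each on either strand.
Fabp1, chr6:71199629-71199878, plus strand: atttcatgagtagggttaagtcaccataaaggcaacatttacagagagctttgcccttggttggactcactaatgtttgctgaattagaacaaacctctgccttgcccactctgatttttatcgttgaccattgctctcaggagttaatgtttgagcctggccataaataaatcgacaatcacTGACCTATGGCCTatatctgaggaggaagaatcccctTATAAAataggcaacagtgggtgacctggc
Cd36, chr5:17835897-17836146, minus strand: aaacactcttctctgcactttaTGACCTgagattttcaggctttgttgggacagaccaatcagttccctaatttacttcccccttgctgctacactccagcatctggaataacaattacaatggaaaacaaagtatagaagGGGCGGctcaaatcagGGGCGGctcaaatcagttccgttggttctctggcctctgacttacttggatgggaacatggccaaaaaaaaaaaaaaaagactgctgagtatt
Fabp7, chr10:57784673-57784922, plus strand: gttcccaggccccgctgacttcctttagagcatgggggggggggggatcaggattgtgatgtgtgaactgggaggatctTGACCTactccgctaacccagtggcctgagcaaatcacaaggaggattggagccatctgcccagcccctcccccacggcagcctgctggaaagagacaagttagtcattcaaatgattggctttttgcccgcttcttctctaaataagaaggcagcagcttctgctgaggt
The match in Fabp1 reads TGACCTATGGCCT on the printed strand and runs from -67 to -55, where -1 is the last base before the start. It overlaps the hexamer at -67 to -62, a further hexamer lies unmarked at -9 to -4, and the TATA box lies at -30 to -25. Promoter windows were at hand for 7 of the 10 genes (9 windows, as Slc27a1 has 3), and not for Slc27a5, Fabp4 and Fabp5. The relaxed element was found in Fabp1 alone among these 7, and in 0.338% of all 32851 windows, searched on both strands. The strict form AGGTCANAGGTCA was in 0 of the 9 windows and in 0.0335% of all. The hexamer AGGTCA was in the windows of Fabp1, Cd36, Slc27a2 and Fabp7 and in 14.0% of all. The TATA box, searched on the printed strand, was in that of Fabp1 and in 7.59% of all. The GC box was in those of Cd36, Slc27a1, Slc27a2 and Slc27a4, and in 32.7% of all, searched on both strands. A match is a run of letters, and binding was not measured.

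The values are log2 signals, where 1 unit stands for a 2-fold ratio; the level a probe set shows also reflects its probes, so genes were not ranked by level. A brightness floor was set on each array at the 95th percentile of the signals of 1205 receptor probe sets (genes of olfactory and vomeronasal receptors, which liver is not known for), and lay between 5.59 and 6.07. It was highest in mouse 4, in which 75.9% of these receptor probe sets were brightest. Array medians lay between 6.22 and 6.31, and Pearson's r of array pairs over all probe sets was 0.971 (mice 1 and 4) to 0.993 (mice 1 and 2), as a description across probe sets that share their arrays. The liver label was checked against 10 hepatocyte markers, of which 9 were measured and all 9 exceeded the floor in every mouse. In whole liver, fewer cells of a type and less RNA per cell cannot be told apart.

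All 10 genes exceeded the floor in all 5 livers, by at least 3.03 in Fabp7 in the mouse where it stood closest. The gene-by-gene plot of values shows that Fabp1, Slc27a2, Cd36 and Slc27a4 had the narrowest spans, and that Fabp5 and Fabp7 had the widest.

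**Figure D1:**
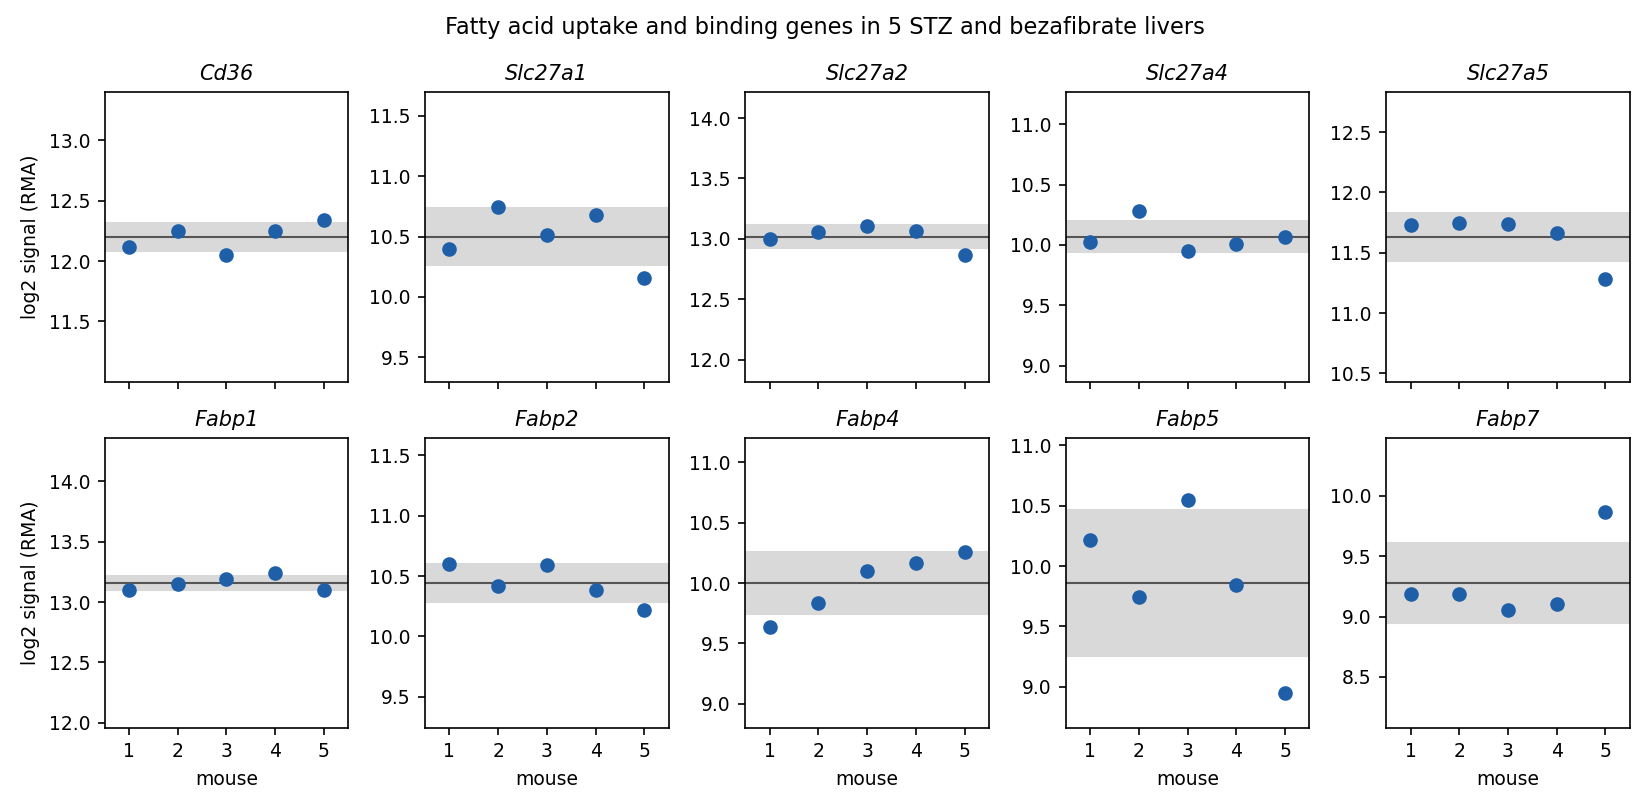
Log2 signal (RMA) of each of the 10 genes in mice 1 to 5, 1 point per liver; the line is the mean and the grey band the mean ± 1 SD (n = 5). Every panel spans the same log2 range around its own mean, so spreads can be compared by eye; Fabp5 spans 1.60, Fabp1 0.14, and Fabp7 stands high in mouse 5 only.

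Among the uptake genes, Cd36 encodes a membrane glycoprotein that binds long-chain fatty acids and oxidised lipoproteins. Its values were 12.11, 12.25, 12.05, 12.25 and 12.34 in mice 1 to 5, with a mean of 12.20 ± 0.12 (SD, n = 5). Mouse 5 was highest and mouse 3 lowest, a 1.22-fold span. The limma variance test, which compares the variance between the 5 arrays with that expected for a gene of the same mean level, gave an unadjusted p of 0.210.

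Slc27a1 encodes FATP1, best known from muscle and fat. It had 10.40, 10.75, 10.51, 10.68 and 10.15 in mice 1 to 5 (mean 10.50 ± 0.24). Mice 2 and 4 were highest and mouse 5 lowest, a 1.51-fold span, and its SD was above the 0.10 expected at its level (limma, unadjusted p = 0.0302, adjusted p = 0.683).

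Slc27a2 encodes FATP2, a very long-chain acyl-CoA synthetase of liver and kidney. Its values of 13.00, 13.05, 13.11, 13.06 and 12.86 gave a mean of 13.02 ± 0.09, with mouse 5 lowest by a small margin. Slc27a4 encodes FATP4, which is abundant in the absorptive cells of the intestine. Its values were 10.03, 10.28, 9.95, 10.01 and 10.07 (mean 10.07 ± 0.13), and mouse 2 was the highest. Neither variance passed (limma, unadjusted p = 0.279 and 0.311).

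Slc27a5 encodes FATP5, a liver enzyme that also reactivates bile acids as their CoA esters. It had 11.73, 11.75, 11.74 and 11.66 in mice 1 to 4 and 11.28 in mouse 5. The first 4 livers lay within 0.09 of each other and mouse 5 stood 0.38 below the nearest. The SD was 0.20 over 5 mice and 0.04 without mouse 5 (limma, unadjusted p = 0.0373 and 0.852, adjusted p = 0.726 and 0.998).

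Among the binding proteins, Fabp1 encodes the liver form, the main cytosolic carrier of hepatocytes and the gene whose promoter holds the element printed above. Its values of 13.10, 13.15, 13.19, 13.24 and 13.10 spanned 1.10-fold (mean 13.16 ± 0.06). Its SD was below the 0.07 expected at its level and was larger than that of 10.8% of the 13329 tested genes. The highest value of any probe set on an array was 14.00 to 14.12, and whether signals near the top of the scale were compressed was not tested.

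Fabp2 encodes the intestinal form, known from the absorptive epithelium. It was 10.60, 10.42, 10.59, 10.39 and 10.22 in mice 1 to 5 (mean 10.44 ± 0.16), with mice 1 and 3 highest and mouse 5 lowest (limma, unadjusted p = 0.158). Of 10 markers of intestinal epithelium, 3 exceeded the floor in all mice (Apoa4, Cdx1 and Lgals4). Lct and Muc2 did so in 3 mice each, and 5 (Vil1, Sis, Alpi, Cdx2 and Olfm4) in none. The part of intestinal tissue in the Fabp2 values was not tested.

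Fabp4 encodes the form of adipocytes, also known from macrophages and capillary endothelium. Its values were 9.64, 9.84, 10.10, 10.17 and 10.26 in mice 1 to 5, with a mean of 10.00 ± 0.26 and a 1.54-fold span. Mouse 1 was lowest and mouse 5 highest (limma, unadjusted p = 0.0256, adjusted p = 0.622). Of 8 adipocyte markers measured, 5 exceeded the floor in all mice (Cidea, Cidec, Aqp7, Lipe and Plin1) and Adipoq and Lep in none. Their part in the Fabp4 values was not tested.

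Fabp5 encodes the epidermal form, which occurs in many cell types and is known to bring ligands to PPARD. It varied most, with 10.22, 9.75, 10.55, 9.84 and 8.95 in mice 1 to 5, a 3.03-fold span around a mean of 9.86 ± 0.60. Mice 1 and 3 were high, mice 2 and 4 lay in between, and mouse 5 was lowest. The SD expected at its level was 0.11, and its SD exceeded that of 99.5% of the tested genes (limma, unadjusted p = 0.000288, adjusted p = 0.0687, which missed the threshold of 0.05). The adjusted p ran from 0.0130 to 0.383 over the alternative settings. It passed with each array centred on its median (0.0130) and without mouse 1 (0.0464), and the SD without mouse 5 was 0.37 (unadjusted p = 0.00141, adjusted p = 0.140).

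Fabp5 was the 1 gene of the 10 with a second probe set, which had 10.01, 9.53, 10.35, 9.62 and 8.79 in mice 1 to 5. The 2 probe sets thus ordered the mice in the same way, and differed by 0.16 to 0.22 on each array. Near-identical copies of Fabp5 exist in the mouse genome. Whether either probe set also measures a copy was not tested, and the 2 were not counted as independent measurements.

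Fabp7 encodes the brain form, known from glia and, in mouse liver, from Kupffer cells, the resident macrophages. It had 9.19, 9.18, 9.05 and 9.10 in mice 1 to 4 and 9.86 in mouse 5 (mean 9.28 ± 0.33). The first 4 livers differed by at most 0.14 and mouse 5 stood 0.67 above the nearest. With mouse 5 left out, the SD was 0.07 (limma, unadjusted p = 0.778), against 0.33 with it (unadjusted p = 0.00997, adjusted p = 0.396).

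Counted together, 0 of the 10 genes had a variance that passed at an adjusted p of 0.05, where limma called 0.357% of 14579 tested probe sets. At an unadjusted p under 0.05, 5 of the 10 were above (Slc27a1, Slc27a5, Fabp4, Fabp5 and Fabp7), where 6.34% of the probe sets were. The median SD of the 10 genes was 0.18 and that of all tested genes 0.12, and without mouse 5 both were 0.11. The observed variance exceeded the expected one in 9 of the 10 genes, all but Fabp1, and in 47.0% of the tested genes. Without mouse 5 it did so in 6 of the 10 genes and in 43.9% of the tested probe sets. With mouse 5 left out, 2 of the 10 had an unadjusted limma p under 0.05 (Fabp4 and Fabp5), where 5.94% of the probe sets did. The 10 genes were chosen with earlier results of these data known, so these counts are a description only.

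**Figure D2:**
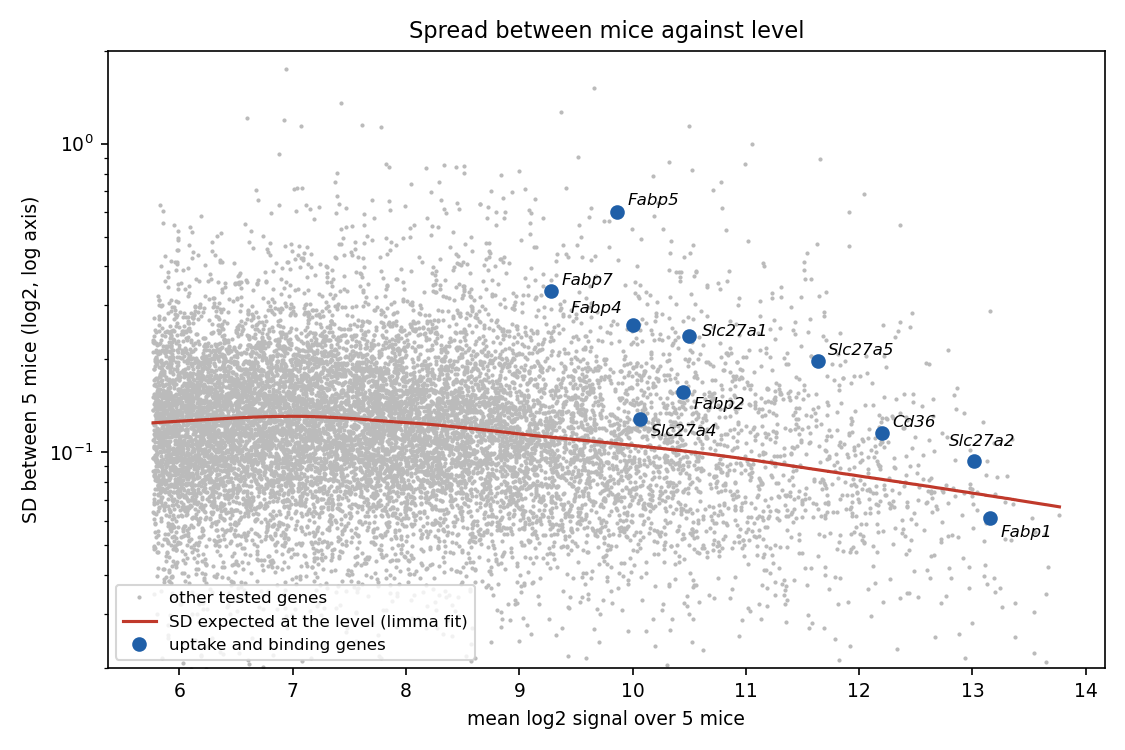
SD between the 5 mice (log axis) against mean log2 signal; grey points are the other tested genes, blue points the 10 uptake and binding genes, and the red line the SD that limma's fit expects at each level. Fabp5 (SD 0.60) and Fabp7 (0.33) stand well above the line, while Fabp1 (0.06) lies below it.

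Mouse 5 held 8 of the 20 extremes (highest or lowest value of a gene), and the other mice 1 to 5 each. In Slc27a5 and Fabp7, 2 of the 10 genes, it stood apart from the other 4 by Dixon's ratio of gap to range, where 5.66% of the tested genes had 1 mouse apart. Slc27a1, Slc27a2, Slc27a5, Fabp2 and Fabp5 were lowest in mouse 5, 5 of the 10 genes, where 21.6% of the tested genes were. Cd36, Fabp4 and Fabp7 were highest in it, 3 of 10 genes, where 19.2% of the tested genes were. With quantile normalization or with arrays centred on their medians, 6 genes were lowest and 3 highest in mouse 5. The average deviation of the 10 genes from their own means was -0.01, 0.03, 0.07, 0.02 and -0.11 in mice 1 to 5, and that of all tested genes -0.06 to 0.03. The average in mouse 5 includes Fabp5, which by itself deviated by -0.91, and 4 of the 10 genes stood above their own mean there.

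**Figure D3:**
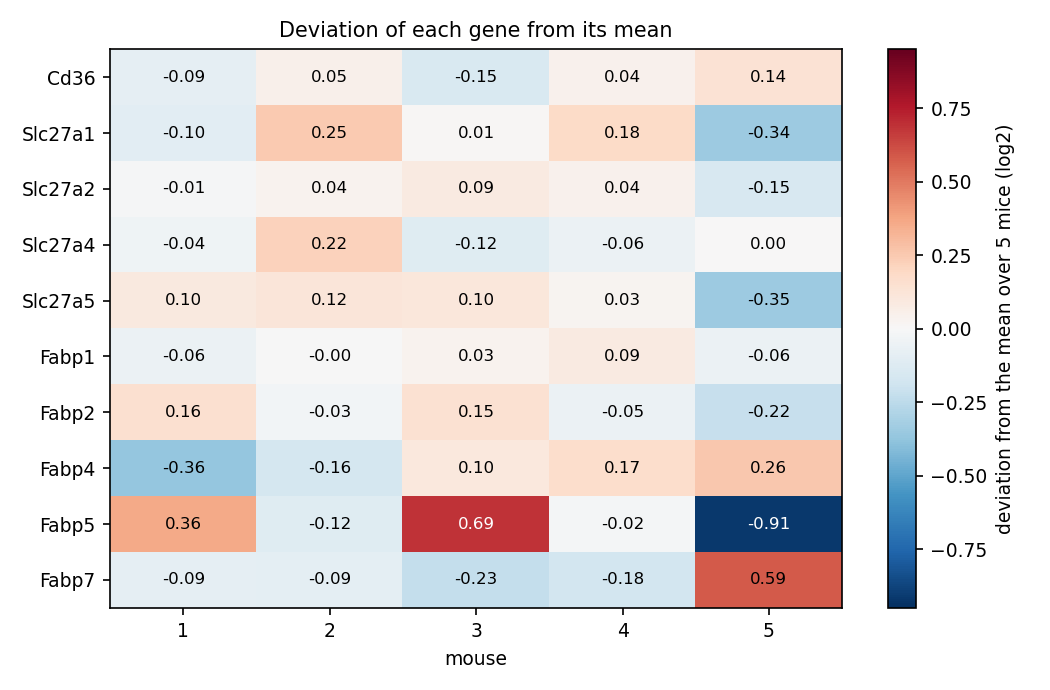
Deviation of each gene from its own mean over the 5 mice (log2; red above, blue below), 1 column per mouse. In mouse 5, Fabp5 deviates by -0.91, Slc27a5 by -0.35 and Slc27a1 by -0.34, and Fabp7 by 0.59.

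Differences between genes on the same array are free of any shift common to that array. Over the 45 pairs, their SD between mice ran from 0.07 for Slc27a2 minus Fabp1 to 0.91 for Fabp5 minus Fabp7, with a median of 0.28. Fabp5 minus Fabp7 deviated from its mean by 0.45, -0.02, 0.91, 0.16 and -1.50 in mice 1 to 5, a 5.32-fold span. Slc27a2 minus Slc27a5, both hepatocyte synthetases, deviated by -0.11, -0.08, -0.02, 0.02 and 0.19, with mouse 5 highest.

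For the 3 widest genes, the tested genes with the most similar profile were sought by the root mean square difference of the centred values over the 5 mice, predicted genes left out. Closest to Fabp5 were B3galt1 (difference 0.09), a galactosyltransferase gene, the carboxylesterase gene Ces3a (0.10) and Wfdc21 (0.11), where the median over 12761 candidates was 0.54. Ces3a, for example, deviated by 0.21, 0.04, 0.72, -0.04 and -0.94 in mice 1 to 5, and all 3 were highest in mouse 3 and lowest in mouse 5, as Fabp5 was. Closest to Fabp7 were Gtse1 (0.06), which encodes a protein of the dividing cell, the centromere gene Cenpt (0.06) and the S100 family gene S100a11 (0.06), against a median of 0.31. Those 3 stood higher in mouse 5 than in the others, S100a11 by 0.67 above its mean. Closest to Fabp4 were Btnl5-ps (0.06), Scarna8 (0.07) and the olfactory receptor gene Olfr401 (0.07), against a median of 0.27. Scarna8 was below the floor in 1 mouse, and these 3 were highest in mouse 4, the array with the highest floor, and lowest in mouse 1, the array with the lowest. The part of the background signal in the profile of Fabp4, at least 4.05 above the floor on every array, was not tested. With 5 mice and this many candidates, close profiles are a description only.

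Other members of the same gene families were mostly dark. Of the 6 Slc27a genes measured, 4 exceeded the floor in all mice, Slc27a3 in 2 mice and Slc27a6 in none. Of the 10 genes of the binding protein family, 6 exceeded it in all mice, and Fabp6, Fabp9, Fabp12 and Pmp2 in none. The sixth bright one was Fabp3, the form of heart and muscle, with 10.86, 11.39, 11.37, 11.38 and 11.49 in mice 1 to 5 (limma, unadjusted p = 0.0146, adjusted p = 0.478). Mouse 1 was the lowest for Fabp3, as it was for Fabp4. Of 5 tested markers of skeletal muscle, 4 were highest in mouse 1, where 23.9% of all tested genes were. The part of muscle tissue in the Fabp3 values was not tested.

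Acyl-CoA synthetases and acyl-CoA-binding proteins act in the next step after uptake. Of the 9 measured of 11, 8 exceeded the floor in all mice and 0 had an unadjusted limma p under 0.05, where 6.34% of all tested probe sets did, with a median SD of 0.08, against 0.12 for all tested genes. Acsl4, a synthetase gene that prefers polyunsaturated acids, was widest (10.20, 10.16, 10.02, 10.16 and 10.49 in mice 1 to 5, highest in mouse 5), followed by Acbd4 (SD 0.12), of a family of acyl-CoA-binding proteins. Acsl1 and Acsl3 were not analysed here.

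Other genes act in the release of fatty acids from lipoproteins or take up lipid by other routes. All 12 measured of 15 exceeded the floor, 5 had an unadjusted limma p under 0.05 (6.34% of all tested probe sets) and 0 passed after adjustment (0.357% of all), with a median SD of 0.18, against 0.12 for all tested genes. Angptl8, whose product inhibits lipoprotein lipase after feeding, had 10.14, 9.25, 8.78, 8.68 and 9.17 in mice 1 to 5 and was highest in mouse 1 (limma, adjusted p = 0.0864). Mfsd2a, a transporter gene for lysophospholipids, had 10.66, 10.66, 9.72, 10.68 and 10.94 and was lowest in mouse 3 (limma, adjusted p = 0.108).

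Among 14 measured of 15 transcription factor genes known to act on the uptake and binding genes, 3 had an unadjusted limma p under 0.05 (6.34% of all tested probe sets) and 0 passed after adjustment (0.357% of all). Pparg, the receptor that drives Fabp4 and Cd36 in fat, had 9.02, 8.64, 9.14, 8.65 and 9.10 in mice 1 to 5, and was lowest in mouse 2. Cebpa, a factor of hepatocytes and adipocytes, had 9.65, 9.38, 9.52, 9.14 and 9.08 and was lowest in mouse 5. Besides Pparg and Cebpa, Nr1i2 had an unadjusted limma p under 0.05 (0.0451). It had 9.91, 10.13, 9.67, 10.06 and 10.27 in mice 1 to 5 and was highest in mouse 5. Ppara, printed in addition as the main target of fibrates in liver, had 10.79, 10.75, 10.80 and 10.78 in mice 1 to 4 and 10.45 in mouse 5 (limma, unadjusted p = 0.167). Of the 14 factors, 3 were lowest in mouse 5 (21.6% of all tested genes) and 4 highest in it (19.2%). Their average deviation there was -0.01.

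Markers of other cell types were set beside these profiles. The deviation of a list is the average over its tested genes, those with a mean above 5.77. A summed signal is the sum of the log2 values of all measured genes of a list, including those not above the floor. Kupffer cell and macrophage markers, of which 11 of 12 exceeded the floor in all mice, deviated on average by 0.35, -0.16, -0.04, -0.21 and 0.06 in mice 1 to 5. Of the 12, 10 were highest in mouse 1, where 23.9% of all tested genes were. The log2 values of these 12 markers summed to between 101.8 and 108.5 in a mouse, where 1 unit stands for a 2-fold difference in 1 gene. The widest were Adgre1 (SD 0.41) and Timd4 (0.40), both highest in mouse 1. Vsig4 was the 1 marker highest in mouse 5 (11.08, 0.37 above its mean), and Cd163 the 1 highest in mouse 3 (6.65, 0.12 above its mean). Fabp4 was lowest in mouse 1, Fabp5 highest in mouse 3 and Fabp7 highest in mouse 5. In mouse 1, where 10 of the 12 markers were highest, these 3 genes deviated by -0.36, 0.36 and -0.09. The part of these cells in the 3 genes was not tested.

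Skeletal muscle markers (5 of 10 above the floor in all mice, Myh4, Mylpf and Actn3 in none, summed signal 60.5 to 65.2) deviated by 0.48 in mouse 1, with Mb (SD 0.39) and Acta1 (0.36) widest. Erythroid markers (2 of 4 measured above the floor in all mice, Epb42 and Rhag in none, summed signal 24.3 to 26.0) deviated by 0.45 in mouse 1, 0.32 in mouse 3, -0.33 in mouse 4 and -0.30 in mouse 5, with Alas2 (0.55) and Slc4a1 (0.19) widest. Stellate cell markers (10 of 10, summed signal 85.0 to 87.1) deviated by 0.14 in mouse 1, with Ecm1 and Reln (0.18 each) widest, and endothelial markers (10 of 10, 89.2 to 90.4) by 0.08, with Stab2 (0.15) and Tek (0.13) widest. Mouse 1 was thus the liver in which several lists of other cells stood highest, and all tested genes deviated there by 0.03 on average.

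Adipocyte markers (5 of 8 measured, summed signal 60.8 to 61.5) deviated by 0.07 at most in size, with Cidec (SD 0.28), which encodes a lipid droplet protein that fatty hepatocytes also express, and Plin1 (0.15) widest. Hepatocyte markers (9 of 9, 116.3 to 117.0) deviated by 0.05 at most, with Tat (0.14) and Apoa1 (0.11) widest. Bile duct markers (4 of 6, Cftr in none, 36.5 to 37.9) deviated by 0.11 in mice 2 and 5 and -0.10 in mouse 3, with Epcam (0.29) and Sox9 (0.22) widest. Leukocyte markers (3 of 11, with Cd3g, Cd79a, Ms4a1, S100a8 and Ly6g in none, 59.8 to 61.7) deviated by -0.08 in mouse 2 and 0.06 in mouse 1, with Ncf1 (0.16) and S100a9 (0.11) widest. Exocrine pancreas markers (3 of 5, Cel in none, 30.2 to 31.3) deviated by 0.17 in mouse 3, with Ctrb1 (0.22) and Cela2a (0.10) widest.

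Intestinal epithelium markers (3 of 10, summed signal 62.3 to 64.7) deviated by 0.45 in mouse 5. Their spread was led by Apoa4, an apolipoprotein gene that liver expresses too, with 10.69, 9.59, 9.73, 9.57 and 11.32 in mice 1 to 5. Apoa4 was the 1 gene of these lists whose variance passed (limma, adjusted p = 0.0220). The call was lost without mouse 2 (adjusted p = 0.0533) and without mouse 4 (0.142), with a plain variance fit (0.151), with no trend (0.102) and with every deposited probe set tested (0.207). The lowest adjusted p, with arrays centred on their medians, was 0.00144. Cdx1 followed with an SD of 0.19.

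**Figure D4:**
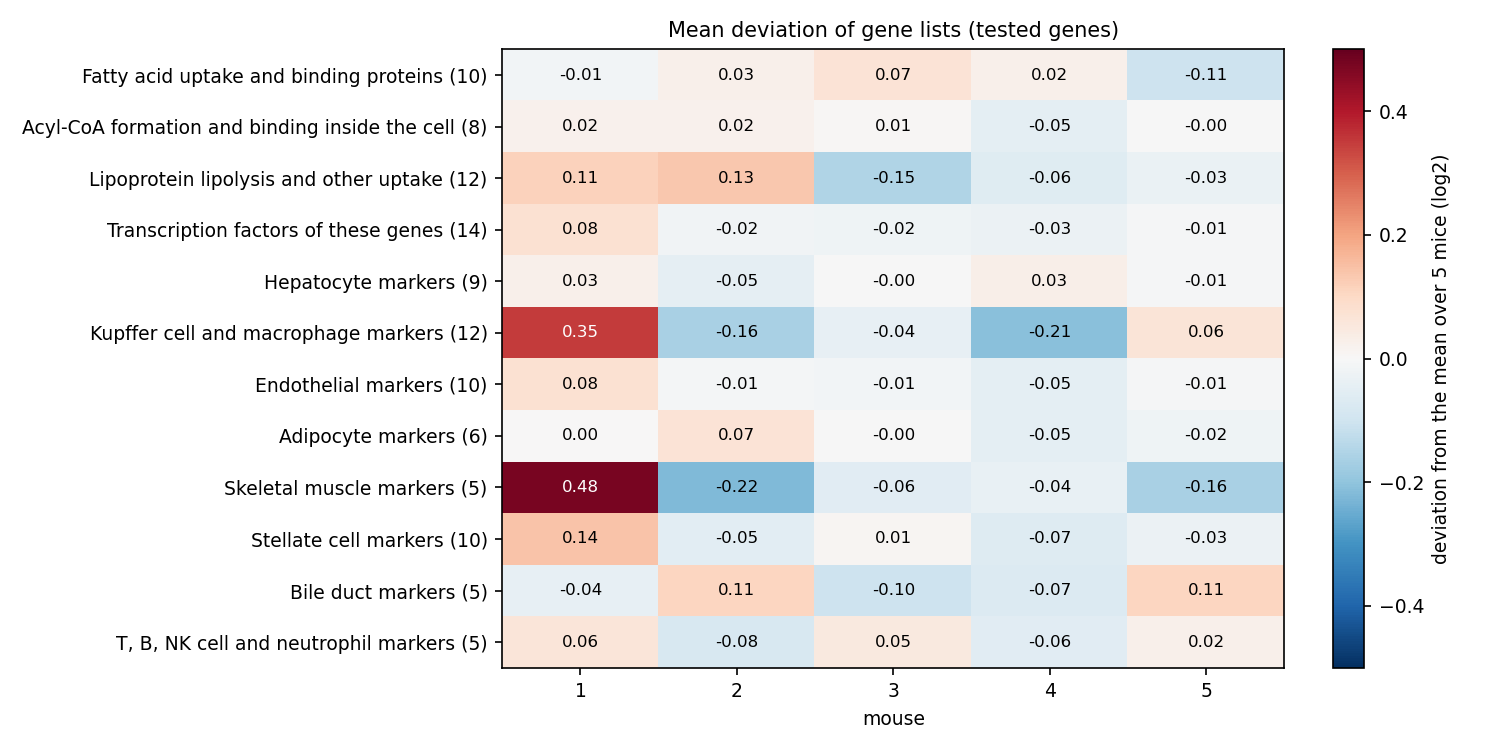
Mean deviation from the mean over 5 mice (log2) of the gene lists with at least 5 tested genes, whose number stands in brackets, 1 column per mouse. Kupffer cell (0.35) and skeletal muscle markers (0.48) stand highest in mouse 1, while the uptake and binding genes stand lowest in mouse 5 (-0.11). This last average includes Fabp5 at -0.91.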

How the data were processed

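Liver RNA of 5 mice was hybridised to Affymetrix whole-transcript arrays, 1 array per mouse. The values are log2 signals per probe set, deposited by the authors; the submitters' processing notes name RMA and Affymetrix Expression Console 1.2 and give neither their order nor any setting. RMA pulls the arrays' distributions together and compresses differences near background. The table held 35556 probe sets, of which the platform annotation gave 1 symbol to 21789, several to 1621 and none to 12146. Depth has no meaning for arrays, and the number of arrays limits the precision. The spread between mice contains the technical error too, which was not measured by itself.

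An intercept was fitted to each probe set with limma 3.58.1 (R 4.3.3). Its variance, on 4 residual degrees of freedom, was tested upper-tailed (F) against the variance expected at its mean level (fitFDistRobustly, statmod 1.5.0, prior degrees of freedom 6.21). Tested were 14579 probe sets of 13329 genes with a mean above 5.77, the 95th percentile of the receptor probe sets' means, with Benjamini-Hochberg adjustment over all of them. Python 3.11.15 with numpy 2.4.6 and pandas 2.3.3 gave the descriptions, and 12 alternative settings were run.

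The members and lists were chosen with earlier results of these data known. Named were all 10 genes, and from each list the genes called and the 2 of largest SD above the floor in all mice. The 3 closest profiles of the 3 widest genes were named too. Ppara, Nr1i2, Vsig4, Cd163, Lgals4, Cidea, Aqp7 and Lipe were named in addition, as were list genes not above the floor in all mice or not analysed. The authors' log2 values were used as deposited.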

Additional observations from a re-analysis of the deposited data

Results flagged for a closer look

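Slc27a5 and Fabp7 each had 1 mouse far from the other 4, mouse 5 in both cases. For Slc27a5 the gap of mouse 5 (11.28) to the next liver made up 0.809 of the whole range, and for Fabp7, where mouse 5 was highest (9.86), 0.828 of it; Dixon's 95% critical value for 5 samples is 0.71. Chance flags about 1 in 20 groups of this kind, and 5.66% of the tested genes exceeded the value, against 2 of these 10 genes. All genes were measured in the same 5 livers, so the 2 flags are not independent and the counts are a description only.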

How the results depend on the processing

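The number of probe sets with a variance above expectation was 52 with limma as described. Centring the arrays on their medians gave 142, a filter on every array 29, a plain variance fit 18, a fit with no trend 24, and a test of every deposited probe set 0 (1384 had an unadjusted p under 0.05). It ran from 0 (864 at an unadjusted p under 0.05, without mouse 4) to 69 (without mouse 1) when 1 array was left out. It was also 34 without mouse 2 and 30 without mouse 3. The cause was not tested. Of the 10 uptake and binding genes, 0 passed as described (5 at an unadjusted p under 0.05), and 1, Fabp5, passed with arrays centred on their medians. The count ran from 0 to 1 when 1 array was left out, and Fabp5 passed without mouse 1. The count at an unadjusted p under 0.05 was 2 without the trend, with all probe sets or without mouse 5, and 4 or 5 otherwise. For 5 of the 10 genes the SD dropped by a factor above 1.5 when 1 mouse was left out. This was mouse 5 for Slc27a2 (0.04), Slc27a5 (0.04), Fabp5 (0.37) and Fabp7 (0.07), and mouse 2 for Slc27a4 (0.05), the SD without it in brackets. All 10 genes stayed above a floor set at the 99th percentile of the receptor probe sets, and above each array's median. The average deviation of the 10 genes in mouse 5 lay between -0.12 and -0.09 under all settings tried. No setting left out Fabp5, which by itself deviated by -0.91 there. The smaller average deviations of mice 1 and 4 changed sign under some settings. The counts of genes lowest or highest in mouse 5 under other scalings, these averages with 1 array left out, and the median SDs without mouse 5 were added after the data were seen. No paired analysis was possible because all mice belong to the same group.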
